A study of Rattus norvegicus with 15 samples.

Results

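Arteries of the brain taken 3 d after 3-vessel occlusion (3VO) were compared with arteries taken 24 h after the same operation. The 6 arrays were chosen by their source label, 3 arrays at each time, out of 15 arrays in all. Every array held RNA of the posterior cerebral artery on the operated side, pooled from 8 Sprague Dawley rats aged 7 weeks and weighing 300 to 350 g. In 3VO both vertebral arteries were electrocoagulated and the left common carotid artery was ligated in one session under isoflurane with buprenorphine. The vessels were filled with latex under papaverin, a vasodilator, before dissection. The other 9 arrays held arteries after sham surgery, in which the vessels were exposed and left untouched, at 24 h (3 arrays) and 3 d (3 arrays), and arteries of intact rats (3 arrays). The treatment text of sham array 1 at 3 d describes the occlusion, although its title and source label say sham.

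When supply arteries are closed, blood reaches the brain through collateral arteries that carry more flow and widen over days to weeks, a process called arteriogenesis. In its classical description, endothelial cells sense the higher flow, monocytes gather around the vessel, smooth muscle cells leave the contractile state and divide, and the matrix of the vessel wall is rebuilt. Acute phase proteins, among them complement and protease inhibitors, are known to be induced early after injury, while cell division and new matrix follow. The comparison of 24 h with 3 d asks how the RNA of the growing artery differs between these times.

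The array signal is a linear brightness for each probe set, a group of short probes for one transcript, and log2 differences are those of log2(signal + 16), 3 d minus 24 h, with the standard error (SE) of limma. Nothing in the labels says whether the 3 pools of a group were separate sets of rats, and the design text speaks of repeated hybridisation, so p-values measure the spread between these arrays. Median signals lay between 2559.4 and 2940.9 over the 15 arrays, and 1.33% to 5.19% of values were below 100. Smooth muscle markers were bright on all 6 occluded arrays: Acta2 (smooth muscle actin) had signals of 26700 to 58200 and Myh11 (smooth muscle myosin) 47600 to 77900. Brain tissue was also present, since the neuronal synaptic gene Snap25 read 17900 to 69100 on the same arrays. In whole arteries, fewer cells of a type and less RNA per cell cannot be told apart.

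No probe set passed the test between 24 h and 3 d after 3VO at an adjusted p under 0.05 (0 of 15737, 0%). The smallest adjusted p was 0.0686, for complement C3. At an unadjusted p under 0.05, limma gave 604 probe sets higher and 303 lower at 3 d, 907 in all or 5.76% of those tested. All 3 arrays at 3 d lay above all 3 at 24 h for 1470 probe sets (9.34%) and below them for 737 (4.68%). With 1 probe set counted per gene, the brightest, 938 of 10360 genes (9.05%) were higher without overlap and 549 (5.3%) lower. The median log2 difference over these genes was 0.03, and 54.9% of them lay above 0. Each member count is read against these shares, and "higher" or "lower" describes signals that did not pass the test.

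**Figure D1:**
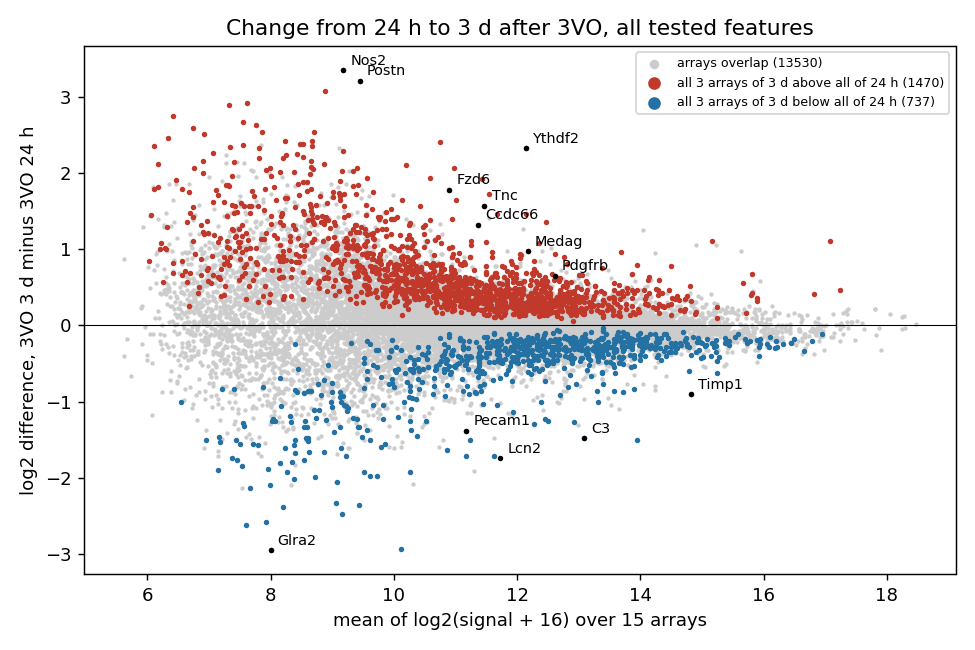
Each point is one of 15737 probe sets, placed by its mean log2(signal + 16) over 15 arrays (horizontal axis) and by its log2 difference, 3VO at 3 d minus 3VO at 24 h (vertical axis). Red points (1470) have all 3 arrays at 3 d above all 3 at 24 h, blue points (737) all 3 below, grey points overlap, and named genes are in black. C3, Lcn2 and Timp1 lie low among the bright probe sets, and Postn and Nos2 are at the top among dimmer ones.

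Complement C3, the central component of the complement cascade and an acute phase protein, had the smallest p of all probe sets. Its signals were 19500, 22200 and 14800 at 24 h and 7840, 5650 and 6570 at 3 d. The lowest array at 24 h was above the highest at 3 d, and the mean at 3 d (6680 ± 1100, SD, n = 3) lay beside the sham means of 6880 at 24 h and 7810 at 3 d and the intact mean of 7810. The log2 difference was -1.48 ± 0.21 (SE, 95% interval -1.93 to -1.03) with an adjusted p of 0.0686, and all 3 arrays at 3 d were lower. C3 passed in 6 of 30 alternative settings, with adjusted p between 0.0167 and 0.445 over them.

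Lcn2 (lipocalin 2, which binds bacterial iron carriers and is released by neutrophils and stressed tissue) read 14500, 22100 and 7520 at 24 h and 7570, 3320 and 2540 at 3 d. The ranges touched, because the first array at 3 d slightly exceeded the third at 24 h. The log2 difference was -1.74 ± 0.38. Lcn2 at 3 d had a mean of 4470, still above the sham mean of 2500 and the intact mean of 1550.

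Timp1, an inhibitor of matrix metalloproteinases, read 107000, 137000 and 73000 at 24 h and 45100, 67200 and 54000 at 3 d. No array overlapped, and the log2 difference was -0.90 ± 0.25. Its mean at 3 d (55400 ± 11100, SD, n = 3) stood well above the sham means of 17400 and 16500. C3 was therefore at the sham level at 3 d in these signals, whereas Timp1 was between its 24 h level and the sham level.

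Pla1a, a phospholipase that acts on phosphatidylserine, showed the same order as Timp1, with 17600, 23100 and 16000 at 24 h and 12900, 13900 and 9490 at 3 d, against sham means of 5460 and 5010. Tspo, a mitochondrial membrane protein used as a marker of activated macrophages and glia, read 15000, 21100 and 15100 at 24 h and 8600, 14100 and 11100 at 3 d. Neither gene's arrays overlapped between the times. A2m (alpha-2-macroglobulin, a broad protease inhibitor) did overlap, with 26200, 30700 and 29100 against 29400, 20800 and 21200.

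Of 36 acute phase genes listed, 28 were measured, and 20 of them were lower and 8 higher at 3 d. The median log2 difference was -0.30, beside 0.03 over all genes and 0.20 for the same list between the sham times. Arrays did not overlap for 5 lower members (17.9%) and 3 higher ones (10.7%). The 5 were C3, Timp1, Pla1a, Tspo and Alb (albumin). The 3 higher ones were Fgb (a fibrinogen chain), Hamp (hepcidin) and Mt1 (a metallothionein), named like Alb after their values were seen, and Mt1 was at 48 to 92 on 5 of the 6 arrays. Without 24 h array 2, which had the highest C3, Lcn2, Timp1, Pla1a and Tspo signals of the 6 arrays, the list median was -0.15, and with the array number in the fit it was -0.18.

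Probe sets that match several genes were read separately and were chosen after their values were seen. A probe set shared by the kininogen genes, precursors of the vasodilator bradykinin, read 25900, 22300 and 9460 at 24 h and 3050, 1430 and 2720 at 3 d, and 73 to 1090 on the 6 sham arrays. Its log2 difference was -2.94 ± 0.76. A probe set shared by Cfb and C2, which are complement proteases, read 46400, 79200 and 21000 at 24 h and 17300, 17300 and 11300 at 3 d. Neither overlapped between the times. Of the 3 probe sets of Cp (ceruloplasmin, a copper-carrying oxidase), 1 was lower without overlap at -0.84 ± 0.30, and the others gave -0.08 ± 0.25 and -0.32 ± 0.33.

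**Figure D2:**
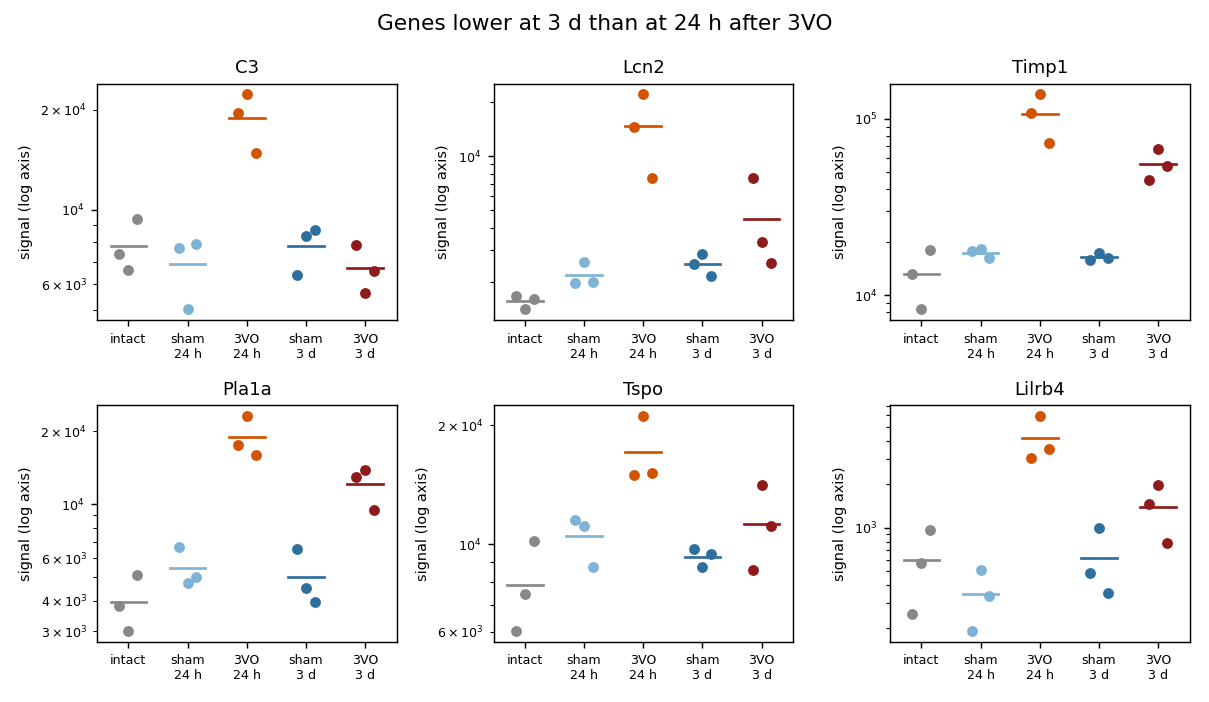
Signal (log axis) of 6 genes on each of the 15 arrays, by group, with points for arrays and a bar for the mean of 3 arrays. C3 at 3 d after 3VO lies among the sham and intact arrays, whereas Timp1 (45100 to 67200) and Pla1a at 3 d lie between the 24 h arrays and the sham arrays.

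Genes of mitosis, the stage at which a cell divides its chromosomes, were mostly higher at 3 d. Of 58 listed, 35 were measured, and 30 were higher and 5 lower, with a median log2 difference of 0.33. Arrays did not overlap for 9 members (25.7%), all of them higher, beside 9.05% of all genes. Between the sham times the median of this list was 0.01, with 18 of 35 higher. Its median difference from sham of the same time was 0.20 at 24 h (26 of 35 higher) and 0.43 at 3 d (32 of 35 higher), so the list was already above sham at 24 h. With each array left out in turn the 3VO median stayed between 0.24 and 0.42, and over the other settings between 0.23 and 0.40.

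Many promoters of mitotic genes are known to carry CCAAT boxes, bound by the factor NF-Y, and a CHR element, bound by the MuvB complexes that hold these genes silent early in the cell cycle and switch them on late in it. The 250 bases before the start site are shown for the 4 mitotic members without overlap that had the smallest p and a RefSeq promoter, from RefSeq on the GRCr8 rat build, 5′ to 3′ along the gene. Capitals mark CCAAT and TTTGAA on either strand, so that ATTGG and TTCAAA are the same letters read from the other strand.
Lmnb1 (chr18:52373689-52373938, plus strand): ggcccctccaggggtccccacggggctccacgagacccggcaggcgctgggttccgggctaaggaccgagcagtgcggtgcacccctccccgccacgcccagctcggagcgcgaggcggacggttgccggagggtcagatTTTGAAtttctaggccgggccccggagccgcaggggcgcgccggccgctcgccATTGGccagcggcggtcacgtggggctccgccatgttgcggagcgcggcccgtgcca
Cdca3 (chr4:159320953-159321202, plus strand): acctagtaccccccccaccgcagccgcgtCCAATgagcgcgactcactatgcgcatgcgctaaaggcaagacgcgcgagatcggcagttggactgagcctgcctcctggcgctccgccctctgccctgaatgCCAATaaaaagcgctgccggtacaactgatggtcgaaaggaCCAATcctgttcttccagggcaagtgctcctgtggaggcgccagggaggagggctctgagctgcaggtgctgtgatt
Cks2 (chr17:13727520-13727769, minus strand): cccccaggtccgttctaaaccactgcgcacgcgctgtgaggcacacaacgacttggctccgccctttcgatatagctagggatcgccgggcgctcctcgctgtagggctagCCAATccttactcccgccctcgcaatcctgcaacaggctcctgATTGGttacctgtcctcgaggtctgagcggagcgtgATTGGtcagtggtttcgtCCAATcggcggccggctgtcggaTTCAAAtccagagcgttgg
Ccnb1 (chr2:33655226-33655475, minus strand): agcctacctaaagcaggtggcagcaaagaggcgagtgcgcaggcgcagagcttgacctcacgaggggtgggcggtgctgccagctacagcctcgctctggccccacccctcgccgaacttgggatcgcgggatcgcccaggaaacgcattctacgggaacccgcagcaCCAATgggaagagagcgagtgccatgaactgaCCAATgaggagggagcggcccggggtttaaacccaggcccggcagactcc

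At least one CCAAT stood in each of these windows. Lmnb1 held 1, Cdca3 3, Cks2 4 and Ccnb1 2. TTTGAA occurred in Lmnb1 and Cks2 and not in this window of Cdca3 or Ccnb1. Promoters of 32 of the 35 measured mitotic genes were matched, and 28 of them (87.5%) held CCAAT and 16 (50%) TTTGAA, beside 34.3% and 16% of all 27457 promoters of the same length. The 28 matched promoters of the DNA replication list held CCAAT in 60.7% and TTTGAA in 10.7%, and the 48 of the matrix list in 25% and 8.33%. A match is a run of letters, and binding was not measured.

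Lmnb1 (lamin B1, a protein of the nuclear envelope) read 5080, 5690 and 5260 at 24 h and 6940, 7410 and 6870 at 3 d, a log2 difference of 0.40 ± 0.13. A second, dimmer probe set of Lmnb1 also did not overlap (0.43 ± 0.30), and the third, dimmest one did (0.77 ± 0.83). Cdca3, a trigger of entry into mitosis, read 2380, 2400 and 1870 at 24 h and 2740, 3550 and 3490 at 3 d. Both genes were higher on every array at 3 d than on any at 24 h.

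Cks2, a small partner of the cyclin-dependent kinases, read 1270, 1710 and 1800 at 24 h and 2050, 3160 and 3320 at 3 d, with a sham mean of 1140 at 3 d and an intact mean of 714. Ccnb1 (cyclin B1, the mitotic cyclin) read 2150, 1900 and 1530 and then 2260, 2890 and 2730. Mki67, the proliferation marker Ki-67, read 1230, 914 and 1250 and then 1320, 2070 and 1750, with sham means of 547 and 567 and an intact mean of 165. For these 3 genes the first array at 3 d was the lowest of the 3 d arrays and only that array came near the 24 h signals. Cks2 and Ccnb1 were named for their promoters after their values were seen.

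Pttg1 (securin, a regulator of sister chromatid separation) and Ube2c (a ubiquitin carrier of the anaphase-promoting complex) had higher means at 3 d, 4260 against 2850 and 3820 against 2500, with overlapping arrays. Cdk1, the mitotic kinase, also overlapped, with 1980, 1760 and 2080 at 24 h and 2070, 3750 and 3420 at 3 d. Top2a (topoisomerase II alpha) had nearly equal means of 1700 and 1790, and its first array at 3 d read 629. The sign of its log2 difference (-0.11 ± 0.74) turned with the setting.

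The DNA replication list did not show the pattern of the mitotic list. Of its 30 measured members 11 were higher and 19 lower, with a median of -0.05 (0.00 without 3 d array 1 and -0.14 without 3 d array 3) and no overlap for 4 lower (13.3%) and 1 higher (3.33%). Its median difference from sham of the same time was 0.24 at 24 h (26 of 30 higher) and 0.23 at 3 d (25 of 30 higher). Pcna, the clamp of the replicating polymerase, read 21400, 18600 and 19300 at 24 h and 13300, 14300 and 16600 at 3 d, with a log2 difference of -0.43 ± 0.17. The sham means of Pcna were 14300 and 13800, so the 24 h arrays after 3VO were the high ones. Mcm7, part of the replicative helicase, read 4510, 4840 and 4860 and then 3690, 4130 and 3180. Fen1, which trims the fragments of the lagging strand, had means of 2270 and 1580, and the sham means, 2140 and 1620, were ordered the same way. The difference between the 2 lists was not tested.

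Among cell cycle regulators 17 of 29 measured were higher, with a median of 0.10 that was 0.03 without 3 d array 2, 0.16 without 24 h array 2 and 0.02 with quantile normalization. Ccnd1 (cyclin D1, which starts the cycle) read 8000, 9650 and 9340 at 24 h and 11900, 10600 and 10400 at 3 d, and its other 2 probe sets overlapped (0.35 ± 0.20 and 0.50 ± 0.26). Myc, a growth-promoting transcription factor, read 958, 1690 and 1700 and then 2420, 2170 and 1720. These were the only members whose brightest probe set did not overlap in this list (6.9%, beside 9.05% of all genes). Cdkn1a (p21, an inhibitor of the cycle) overlapped, with means of 4520 and 5430.

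Extracellular matrix genes were also mostly higher at 3 d. Of 71 listed, 65 were measured, 51 of them higher and 14 lower, with a median log2 difference of 0.22. Arrays did not overlap for 14 members (21.5%), all higher. Between the sham times 28 of 65 were higher and the median was -0.06. Without 3 d array 2 the 3VO median was 0.09, the lowest of the settings. Against the sham arrays of the same time, the list after 3VO had a median log2 difference of -0.25 at 24 h, with 15 of 65 higher. At 3 d it was 0.04, with 34 of 65 higher, so the list was below sham at 24 h and near it at 3 d.

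Tnc (tenascin C, a matrix protein of healing and remodelling tissue) read 1430, 1980 and 1620 at 24 h and 2460, 6700 and 7500 at 3 d, a log2 difference of 1.57 ± 0.37. Its 24 h mean of 1680 was below the intact mean of 2630 and the sham mean of 2520. Postn (periostin, a matrix protein of activated fibroblasts) read 157, 660 and 714 and then 931, 6900 and 10300, a difference of 3.21 ± 0.98. In both genes arrays 2 and 3 at 3 d were far above array 1, which was still above every 24 h array.

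The bright collagen genes showed smaller differences. Col1a1 read 51700, 60000 and 39500 at 24 h and 65000, 74700 and 60200 at 3 d, and its second probe set also did not overlap. Col1a2 read 104000, 102000 and 92700 and then 138000, 157000 and 106000. Both encode chains of collagen I, the main fibre of the adventitia. The 3 d means of Col1a1 (66600) and Col1a2 (134000) were near the sham means at 3 d (68900 and 140000), and the intact means were 38700 and 88400. Col3a1, a chain of collagen III, had means of 74300 and 76300, and its sign turned with the setting.

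Lum (lumican, a proteoglycan that orders collagen fibres) read 16400, 22200 and 20700 at 24 h and 24800, 37700 and 28600 at 3 d, against sham means of 21900 and 21300. Mfap4, a protein of elastic microfibrils, read 10400, 9910 and 12600 and then 13200, 23800 and 21100. The other members without overlap were Fbln2, Mfap2, Col14a1, Lamb1, Nid2, Col8a1, Fbn2 and Vcan, with log2 differences between 0.29 and 1.08, named after their values were seen. Spp1 (osteopontin, made by macrophages) went the other way, with 26300, 36700 and 12100 and then 7520, 15100 and 13700, and overlapped. Fn1 (fibronectin) overlapped, with means of 36800 and 46100.

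Proteases were mixed, with 22 of 40 measured members higher, a median of 0.04 whose sign turned with the setting, and no overlap for 6 higher (15%) and 2 lower (5%). Mmp14, a membrane-bound collagenase, read 14800, 16700 and 19300 at 24 h and 23100, 25300 and 22100 at 3 d. Its 24 h mean of 17000 was below the sham mean of 22500 at 24 h. Adamts1, which cleaves versican, read 8390, 9840 and 7290 and then 4090, 5950 and 5360. Mmp10 was below 1000 on all 6 arrays.

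Of 28 protease inhibitors measured, 20 were lower and the median was -0.17 (-0.11 without 3 d array 1 and -0.04 without 24 h array 2), with no overlap for 3 lower (10.7%) and 1 higher (3.57%). The study picked protease inhibitors on these samples, so this list is not independent evidence of its direction. Tfpi2, an inhibitor of serine proteases bound to the matrix, was the higher one, at 1240, 1530 and 1040 and then 4420, 2300 and 2200. Its log2 difference was 1.16 ± 0.29, opposite to that of Timp1. Wfdc1 had means of 8000 and 5960, and the sham arrays were ordered the same way without overlap.

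Among growth factors and their receptors, 37 of 56 were higher, with a median of 0.14 (0.08 without 3 d array 2) and no overlap for 7 higher (12.5%) and 2 lower (3.57%). Pdgfrb, the receptor by which pericytes and smooth muscle cells sense platelet-derived growth factor, read 4600, 5050 and 4750 at 24 h and 7190, 8550 and 6890 at 3 d, with sham means of 7210 and 7010. The log2 difference was 0.65 ± 0.20, and the 24 h arrays were the low ones. Pdgfa, a ligand of the platelet-derived growth factor receptors, read 4370, 4770 and 4610 and then 7650, 6160 and 5430. Igf1 (insulin-like growth factor 1) was higher without overlap both after 3VO (means 9660 and 12900) and after sham (13700 and 18400), and its second probe set overlapped (0.67 ± 0.26). Igfbp4, which binds that factor, read 7440, 9180 and 6940 and then 4980, 5670 and 5670. Vegfa and Tgfb1 overlapped, with means of 3010 and 2510 and of 4950 and 5410.

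**Figure D3:**
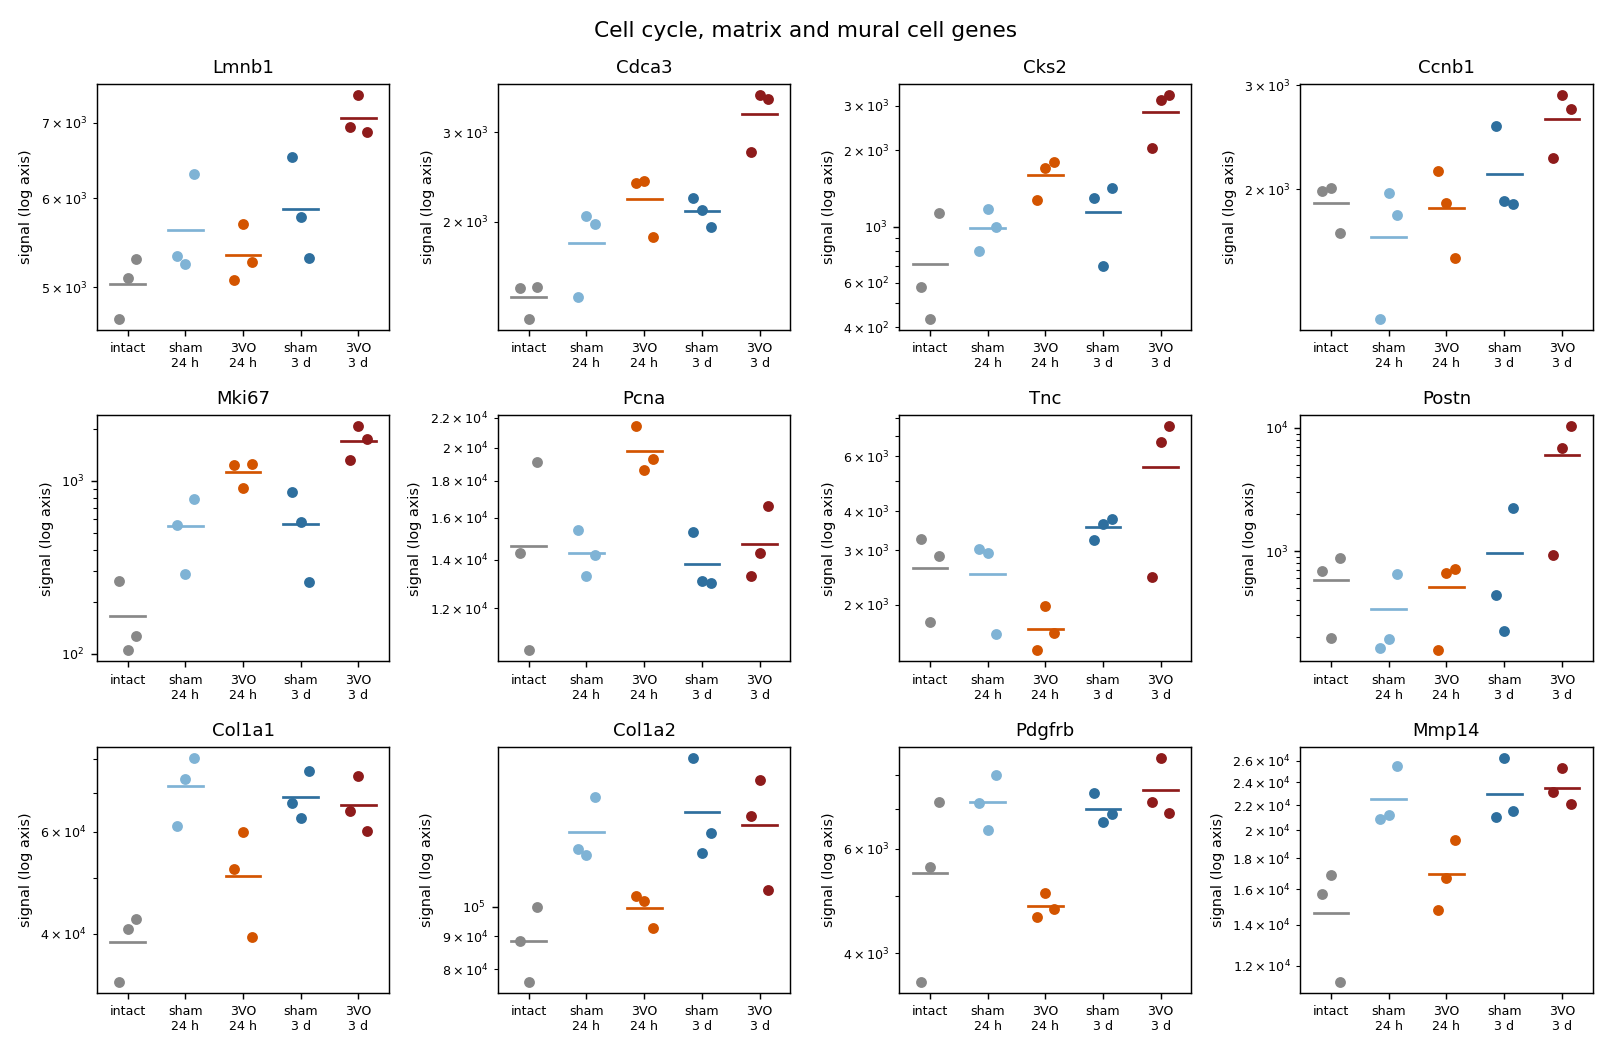
Signal (log axis) of 12 genes on each of the 15 arrays, by group, with points for arrays and a bar for the mean of 3 arrays. The mitotic genes Lmnb1, Cdca3, Cks2, Ccnb1 and Mki67 are highest at 3 d after 3VO, Pcna is highest at 24 h after 3VO, and Pdgfrb and Mmp14 at 24 h after 3VO lie below the sham arrays of both times.

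Contractile smooth muscle genes gave no single direction between 24 h and 3 d. Of 31 measured 18 were higher and 13 lower, with a median of 0.06 whose sign turned with the setting, and 3 (9.68%) were higher without overlap. Vcl (vinculin, which anchors actin at cell contacts) read 15300, 17500 and 14000 at 24 h and 25600, 22200 and 22400 at 3 d, and its second probe set overlapped (0.36 ± 0.16). Smtn (smoothelin, a marker of contractile smooth muscle) read 4920, 5380 and 3790 and then 6180, 9980 and 5500. Acta2 overlapped (means 39300 and 41300), as did Myh11 (57700 and 62900), and the signs of both turned with the setting. Myl9, the regulatory light chain of myosin, read 26900, 50100 and 45500 and then 43500, 79300 and 59600. Between the sham times 3 of the 31 members were higher and the median was -0.22. The median difference from sham of the same time was -0.56 at 24 h (1 of 31 higher) and -0.36 at 3 d (4 of 31 higher). For the 11 smooth muscle markers measured it was -0.68 at 24 h and -0.40 at 3 d, with 0 higher each time. Both lists were thus mostly below sham at both times.

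Pericyte markers were higher for 10 of 12 genes, with a median of 0.34 that stayed between 0.23 and 0.40 over all settings. The 3 without overlap (25%) were Pdgfrb, which is also in the growth factor list, Anpep and Cspg4. Anpep, an aminopeptidase on the pericyte surface, read 5720, 5740 and 5550 at 24 h and 7680, 7820 and 6610 at 3 d. Cspg4 (NG2), named after its values were seen, read 2190, 2160 and 2050 and then 2200, 2930 and 2360. The pericyte list had a median difference from the sham arrays of the same time of -0.35 at 24 h and -0.07 at 3 d, with 4 of 12 higher each time. Markers of leptomeningeal fibroblasts, the cells of the membrane around brain arteries, were higher for 16 of 17 genes with a median of 0.17, 4 of them without overlap (23.5%). Of these 4, Col1a1, Col1a2 and Lum are also in the matrix list, so the counts of the 2 lists are not separate. The leptomeningeal median was 0.08 without 3 d array 2, 0.27 without 3 d array 3 and 0.02 with the neuron covariate described further on. For the leptomeningeal fibroblast list the median difference from sham of the same time was -0.20 at 24 h (2 of 17 higher) and 0.07 at 3 d (10 of 17 higher). Foxc1, a transcription factor of these cells, read 5070, 5690 and 2770 and then 6780, 7030 and 9880, with sham means of 4920 and 5100.

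Endothelial markers were split, with 10 of 18 higher, a median of 0.02 whose sign turned with the setting, and 1 higher and 1 lower without overlap (5.56% each). Pecam1 (CD31, an adhesion molecule of endothelial junctions) read 2280, 4460 and 3900 at 24 h and 1560, 999 and 1410 at 3 d, with a log2 difference of -1.38 ± 0.40. Its sham means were 4120 and 2900 and its intact mean 1440. Ocln (occludin, a tight junction protein) read 5090, 7700 and 6710 and then 9170, 8630 and 8350, and its second probe set overlapped (-0.10 ± 0.19). Nos3 (endothelial nitric oxide synthase) overlapped widely, at 1780 to 3930 and 1070 to 4530.

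In the list of vascular tone genes (41 measured, 24 higher, median 0.09) 4 were higher (9.76%) and 2 lower (4.88%) without overlap, near the shares of all genes (9.05% and 5.3%). The median ran from 0.01 with the array number in the fit to 0.16 without 3 d array 1. Avpr1a, the vasopressin receptor of smooth muscle, read 537, 508 and 487 at 24 h and 887, 1050 and 1030 at 3 d. Adra1d, an alpha-1 adrenergic receptor, read 658, 323 and 1370 and then 260, 107 and 313, and both receptors were dim. Kcna5, a potassium channel that relaxes the vessel, read 1700, 1260 and 1090 and then 2240, 1860 and 2040. Rgs2, which dampens contraction signals from G-protein-coupled receptors, read 12700, 13400 and 10800 and then 8200, 10700 and 10200, and its second probe set overlapped (-0.30 ± 0.20).

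Macrophage markers were lower for 18 of 23 genes, with a median of -0.21. The same list was lower for 22 of 23 genes between the sham times, with a median of -0.23. Taken gene by gene, the difference between the 2 time changes had a median of -0.02. The macrophage list after 3VO was above sham of the same time at both times. Its median difference from sham was 0.24 at 24 h (20 of 23 higher) and 0.48 at 3 d (22 of 23 higher). Arrays did not overlap for 4 members (17.4%), all lower. Lilrb4, an inhibitory receptor of myeloid cells, read 3040, 5930 and 3510 at 24 h and 1450, 1970 and 780 at 3 d, against sham means of 346 and 614. C1qb, a chain of the complement starter C1q made by macrophages and microglia, read 24300, 35200 and 24100 and then 16800, 19400 and 20700. C1qc and C1qa, the latter named after its values were seen, were ordered the same way, with means of 28100 and 20200 and of 34300 and 26700.

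The general macrophage marker Cd68 was not lower, with 6640, 7420 and 6370 at 24 h and 6730, 8930 and 7400 at 3 d. Gpnmb, a glycoprotein of lipid-laden macrophages, overlapped, with means of 29700 and 22700 against sham means of 8450 and 6580. Fcgr2b, an inhibitory antibody receptor, overlapped, with means of 14300 and 9350. The list median was -0.36 without 3 d array 2, -0.35 without 24 h array 1 and -0.11 without 24 h array 2.

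Of the 7 neutrophil markers measured 5 were lower, with a median of -0.62 that ran from -1.16 without 24 h array 1 to -0.23 without 24 h array 3. S100a9, a calcium-binding protein abundant in neutrophils, read 6150, 9820 and 11000 at 24 h and 3920, 5240 and 4880 at 3 d. Sham means of S100a9 were 7970 and 10400, as high as at 24 h after 3VO. S100a9 was the only member of this list without overlap (14.3%), and 3 of the 7 had means below 1000 at both times. The 2 higher members included Mmp9, a gelatinase, at a log2 difference of 0.72. The second, dim probe set of Mmp9 was higher without overlap (1.76 ± 0.57). Lymphocyte markers were low, with means below 1000 at both times for 9 of 15, and 5 of 15 (33.3%) were higher without overlap. Their median was 0.11, with a sign that turned with the setting (lowest -0.03). The median difference from sham of the same time was -0.09 at both times. Cd8a, a co-receptor of cytotoxic T cells, read 92, 97 and 104 and then 694, 885 and 219, while Cd3d, part of the T cell receptor complex, read 975, 637 and 824 and then 249, 342 and 670.

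Adhesion molecules, chemokines and cytokines included members of both directions (46 measured, 25 higher, median 0.04 with a sign that turned with the setting; no overlap for 7 higher, 15.2%, and 4 lower, 8.7%). Cxcl10, a chemokine that attracts T cells, read 1090, 1390 and 1410 at 24 h and 2260, 2700 and 2110 at 3 d, but its sham means, 2580 and 3110, were above both. Ccl2, the chemokine that attracts monocytes, read 2210, 1840 and 1520 and then 2190, 5880 and 8800, so arrays 2 and 3 at 3 d were high and array 1 was not. The sham means of Ccl2 were 890 and 841. Il33, an alarm signal released by damaged stromal cells, read 7110, 7610 and 8970 and then 4760, 3110 and 4020, and its second probe set was lower without overlap by less (-0.27 ± 0.19). Il6 read 224 to 482 and 248 to 652, and its sign turned with the setting. Tnf was below 1000 on all 6 arrays.

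The complement list had a median of -0.12, which was -0.02 without 3 d array 1 and 0.01 without 24 h array 2. Of its 20 measured genes, 4 (20%) were lower without overlap, namely C3 and the 3 C1q chains, and 2 (10%) were higher. The higher ones were Cfp (properdin, which stabilises the C3 convertase), with 3030, 3400 and 2650 and then 4130, 4350 and 3840, and C9, a pore-forming component. The second, dimmer probe set of Cfp overlapped and went the other way (-0.77 ± 0.81). C3 is also in the acute phase list, and the C1q chains are also macrophage markers. In the interleukin 6 and STAT3 list (25 measured, 13 higher, median 0.03 with a sign that turned with the setting), Il6st (the shared receptor chain gp130) read 20200, 21700 and 23500 and then 28600, 26000 and 24400, and its other 2 probe sets overlapped (0.40 ± 0.28 and -0.07 ± 0.23). Cebpd, a transcription factor of the acute phase response, read 5080, 5740 and 4290 and then 4130, 3040 and 3680, and its other 2 probe sets overlapped (-0.12 ± 0.43 and 0.63 ± 0.76). Socs3, the feedback inhibitor of STAT3, had means of 2000 and 1880.

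Mitochondrial respiratory chain genes were lower for 39 of 51, with a small median of -0.11, beside -0.02 between the sham times. Arrays did not overlap for 8 lower (15.7%) and 2 higher (3.92%). Ndufa5, Ndufb2, Ndufs3 and Ndufv3 encode subunits of complex I, an entry point of electrons into the chain. The lower ones without overlap included these 4, and the second, dimmer probe set of Ndufv3 overlapped (0.14 ± 0.27). Ndufs3 read 12700, 13500 and 14600 at 24 h and 9830, 10100 and 10600 at 3 d, with sham means of 13400 and 13000. Ndufb2 read 21800, 22800 and 26100 and then 17000, 16600 and 17800, and the sham means, 23100 and 17300, were ordered the same way without overlap. The list median was -0.03 without 24 h array 3 and -0.05 without 3 d array 1.

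Glucocorticoid response genes were lower for 18 of 26, with a median of -0.30 that was -0.12 without 3 d array 3. Nr3c1, the glucocorticoid receptor, was higher instead, with 5600, 6780 and 7070 at 24 h and 7360, 8870 and 10100 at 3 d, and its second, dim probe set overlapped (0.13 ± 0.80). Fkbp5, a classical target of the receptor, overlapped, with 13500, 11000 and 8050 and then 9370, 9010 and 5840. Mt2A, a metallothionein induced by glucocorticoids and metals, read 42500, 33900 and 33300 and then 36100, 19600 and 17000. Arrays did not overlap for 2 higher and 2 lower members of the list (7.69% each), near the shares of all genes (9.05% and 5.3%). Mt2A is also in the acute phase list, and both lists run from -1.74 to 1.48, so they are not separate.

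Among 36 chaperones and genes of the unfolded protein response, 26 were lower with a median of -0.07 (-0.03 without 3 d array 1 and -0.15 without 3 d array 2), and 3 were lower and 3 higher without overlap (8.33% each). Pdia3, a disulfide isomerase that folds glycoproteins, read 45500, 48400 and 45800 at 24 h and 60000, 73500 and 71300 at 3 d, with sham means of 46800 and 48800. Its second, much dimmer probe set gave 0.09 ± 0.26. Manf, a secreted protein of the stressed endoplasmic reticulum, read 10000, 11100 and 10100 and then 6790, 8950 and 7480. Hspa1a, the inducible HSP70, read 4470, 4480 and 4700 and then 8960, 6980 and 4900.

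The remaining lists had medians between -0.07 and 0.12. Of 34 interferon and antigen presentation genes and 16 clock genes, none lacked overlap, and no member passed at an adjusted p (the smallest were 0.845 and 0.875, and 1 and 0 members had an unadjusted p under 0.05). Cholesterol synthesis had 3 lower members without overlap of 26 (11.5%), Sqle, Srebf1 and Pmvk, and the second probe set of Srebf1 overlapped (-0.07 ± 0.24). Among hypoxia and glycolysis genes Epas1 (HIF-2 alpha) read 21600, 26900 and 28900 and then 30000, 34500 and 31600, while its second probe set overlapped and went the other way (-0.17 ± 0.22). Immediate early genes (31 measured, 21 higher, median 0.12, and 0.00 without 24 h array 3) included Egr1, which overlapped with means of 8450 and 9810. Hmox1 read 13400 and 20400 on array 2 of each time and 3280 to 5290 on the other 4 arrays, and the sign of its difference turned with the setting. Lysosome and lipid genes had a median of -0.05.

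**Figure D4:**
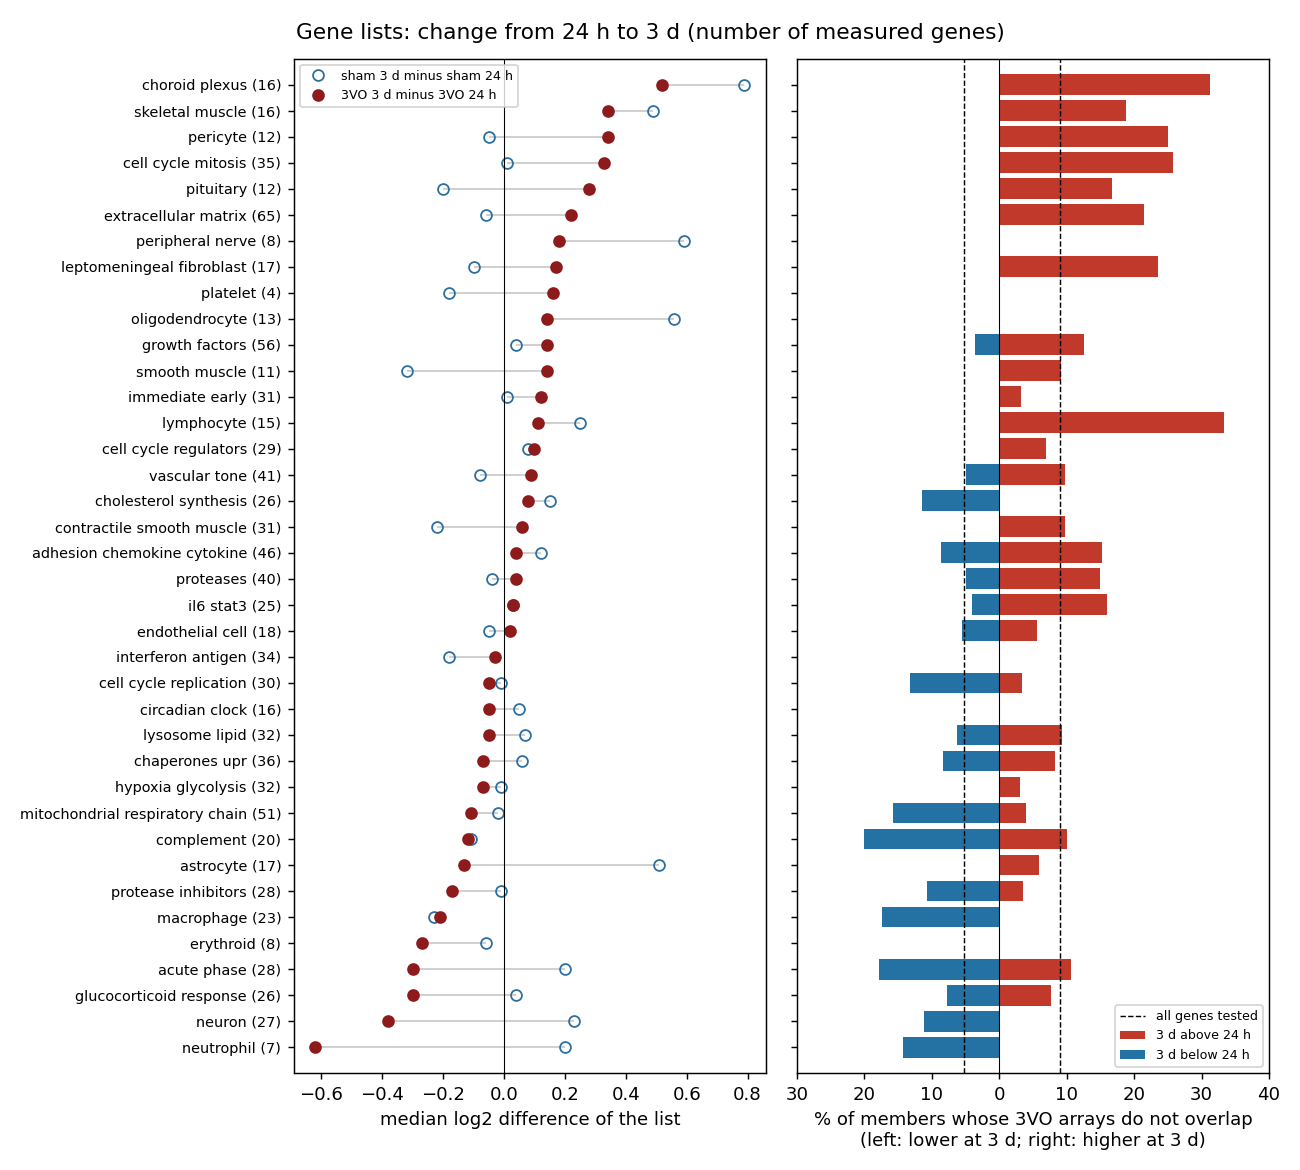
Left, the median log2 difference between 24 h and 3 d of each of 38 gene lists, after 3VO (filled) and after sham (open), with the number of measured genes in brackets. Right, the percentage of members whose 3 arrays at 3 d lay all above (red) or all below (blue) those at 24 h after 3VO, with dashed lines at the shares of all genes (9.05% and 5.3%). The mitosis and matrix lists have 25.7% and 21.5% above and none below. Other lists with none below include lymphocyte (33.3% above), choroid plexus (31.2%), pericyte (25%) and leptomeningeal fibroblast (23.5%).

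The genes with the smallest p outside the lists were diverse. Medag, a gene linked to fat cell formation, read 3890, 3450 and 3260 at 24 h and 6470, 6970 and 7280 at 3 d, a log2 difference of 0.97 ± 0.16. It was higher without overlap between the sham times as well, with means of 3790 and 5980. Ccdc66, a protein of centrosomes and cilia, read 1420, 1600 and 1480 and then 3570, 3830 and 3900, a log2 difference of 1.32 ± 0.22. The 24 h arrays of Ccdc66 were below the sham mean (3420) and the intact mean (2410), and the sham means went the other way, to 2700 at 3 d. The adjusted p was 0.132 for both genes.

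Fzd6, a receptor for Wnt ligands, read 645, 707 and 1690 at 24 h and 3530, 3080 and 3020 at 3 d, with sham means of 2120 and 3060. Ythdf2, which binds methylated RNA and speeds its decay, read 1550, 2010 and 1650 and then 5900, 8480 and 13000. Its second probe set was higher without overlap too, at a smaller log2 difference of 0.52 ± 0.19 beside 2.32 ± 0.44. The intact mean of Ythdf2 was 9750, so the 24 h arrays were the low ones. Maf, a transcription factor, read 4930, 5920 and 4910 and then 8140, 8690 and 7340, and its other 2 probe sets overlapped.

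Nos2, the inducible nitric oxide synthase, read 234, 275 and 172 at 24 h and 4330, 804 and 4050 at 3 d. Sham means of Nos2 were 1900 and 358 and the intact mean 234. The remaining higher genes under the naming rule were Zdhhc20, Tnrc18, Kcnk15, Fam98c, Acbd3 and Dnaaf1, with log2 differences of 0.96 to 1.92 and adjusted p of 0.279 to 0.537. The second probe set of Acbd3 overlapped (0.18 ± 0.16).

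The lower genes under that rule included C3, Timp1 and Ndufb2, described above. Dgkb, a diacylglycerol kinase of brain, read 6870, 4600 and 5390 at 24 h and 2140, 2340 and 3160 at 3 d. Glra2, a subunit of the neuronal glycine receptor, read 1820, 1190 and 1040 and then 170, 100 and 222, and its second probe set was also lower without overlap (-1.21 ± 0.75). Trpc2, an ion channel of the vomeronasal organ, read 1330, 1310 and 1300 and then 173, 353 and 231, but its second probe set went the other way without overlap (0.53 ± 0.44). Cngb1, a channel subunit of photoreceptors, read 2220, 2300 and 1510 and then 633, 671 and 675, while its 2 dimmer probe sets gave 0.88 ± 0.64 and 0.94 ± 0.52. The others were Zfyve27, LOC102549726, Esd, Eif3i and Sh3bgrl3, with log2 differences between -0.89 and -0.46.

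Markers of cells beyond the artery wall were read as well. No member passed the test, and the summed signals of the neuron, choroid plexus, pituitary and astrocyte markers overlapped between the times. A sum follows the brightest genes. With each gene centred on its mean, the choroid plexus list did not overlap, at -0.80 to -0.77 at 24 h and -0.65 to 0.82 at 3 d. Their part in the results was not tested beyond the covariate fits given with the settings. Neuron markers were lower for 21 of 27 genes with a median of -0.38, 3 of them without overlap (11.1%). Their summed signal ran from 187000 to 349000 at 24 h and from 123000 to 316000 at 3 d. The lowest array was 3 d array 2, and without it the list median was 0.07. Leaving out 24 h array 2, 24 h array 3 or 3 d array 3 gave -0.70, -0.17 and -0.68. Scg2 (secretogranin II, of neuronal vesicles) read 15000, 7600 and 12400 and then 5820, 2680 and 6740. The defining marker Snap25 read 51000, 25800 and 69100 and then 31300, 17900 and 51600, so arrays 2 of both times held the least. When the neuron list's mean level on each array entered the fit, the matrix median was 0.12 and the macrophage median -0.34, beside 0.22 and -0.21 without it.

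Choroid plexus markers were higher for 15 of 16 genes, with a median of 0.52 and 5 (31.2%) without overlap. Their summed signal was 95300 to 149000 at 24 h and 112000 to 327000 at 3 d, and 3 d array 3 held the most. Ttr (transthyretin, the defining product of the choroid plexus) read 10000, 21100 and 51100 and then 11000, 9350 and 166000. Without 3 d array 3 the median was 0.16, and with the array number in the fit it was 0.08. With this list's own mean level on each array in the fit it was -0.04. That covariate takes out the change shared by the list, so this value cannot test the list's direction. Skeletal muscle markers were higher for 12 of 16 genes, with a median of 0.34 and 3 (18.8%) without overlap, and 8 had means below 1000 at both times. Their summed signal was 29500 to 51600 and then 49700 to 116000, beside 86700 to 92600 and 77700 to 126000 after sham. Most of this sum on each occluded array was the myosin Myh1, so the sum mainly follows 1 gene. Myh1 read 37600, 39500 and 17500 and then 102000, 54700 and 35000, and 1 of its other 4 probe sets went the other way (-0.30 ± 0.62).

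The pituitary hormone Prl (prolactin) read 193, 178 and 97 at 24 h and 2090, 2920 and 437 at 3 d, and Gh1 (growth hormone) 1420, 1240 and 975 and then 3290, 24600 and 1570. Pituitary markers as a whole (12 measured) summed to 10000 to 12700 and then 10300 to 38700, and Chga, a granule protein of endocrine cells and neurons, had means of 1630 and 617. Erythroid markers were lower for 7 of 8 genes with a summed signal of 286000 to 304000 at 24 h and 195000 to 289000 at 3 d, and a median of -0.27 (-0.16 without 3 d array 1 and -0.49 without 3 d array 2). Astrocyte (17 measured), oligodendrocyte (13), peripheral nerve (8) and platelet (4) markers had medians of -0.13, 0.14, 0.18 and 0.16, each with a sign that turned when arrays were left out. Astrocyte sums ran from 507000 to 633000 and then from 482000 to 659000.

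**Figure D5:**
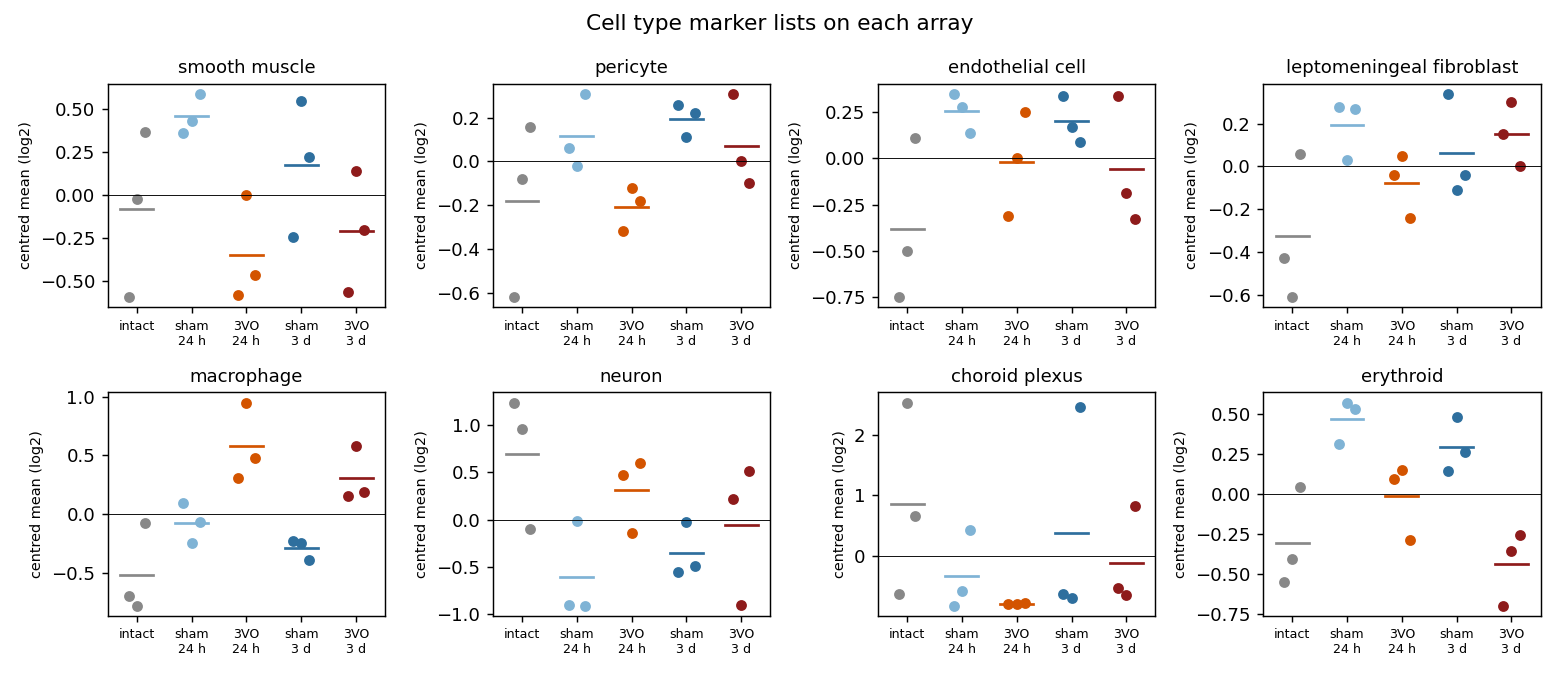
Mean log2 signal of 8 marker lists on each of the 15 arrays after each gene was centred on its mean over all arrays, with points for arrays and a bar for the mean of 3. The neuron list is lowest after 3VO on array 2 at 3 d (-0.90), the choroid plexus list is higher on array 3 at 3 d (0.82) than on the other occluded arrays, and the erythroid list at 3 d lies below 0 on all 3 occluded arrays.

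The change with time after 3VO was set against the change with time after sham surgery, which rests on 6 other arrays. No probe set passed the test of the difference between the 2 time changes (0 of 15737, 0%), with a smallest adjusted p of 0.704 and 438 probe sets at an unadjusted p under 0.05. Between the sham times themselves no probe set passed either (0 of 15737, 0%; smallest adjusted p 0.757, 889 at an unadjusted p under 0.05), and 651 genes (6.28%) were higher and 525 (5.07%) lower without overlap. Across 10360 genes, which are not independent replicates, the log2 differences after 3VO and after sham had a Pearson correlation of 0.209, given as a description. It was 0.23 over the 8520 genes with a mean signal of 1000 or more.

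By the naming rule, C3 had the smallest p among the lower genes of this comparison, with a log2 difference between the time changes of -1.68 ± 0.30. The sham time change of C3 was 0.20, against -1.48 after 3VO. Ccdc66 (1.65 ± 0.31), Nos2 (5.19 ± 1.08), Mrgprf (1.43 ± 0.35), Gh1 (4.17 ± 1.09), Zmpste24 (0.96 ± 0.25) and Prl (4.69 ± 1.25) were on the higher side. Zmpste24, the protease that matures lamin A, read 7500, 8960 and 8200 at 24 h and 13600, 14100 and 13600 at 3 d after 3VO, with sham means of 12300 and 10600. Nos2, Gh1 and Prl were high on some sham arrays at 24 h, which gave sham time changes of -1.84, -2.11 and -1.61. On the lower side were also Glra2, LOC102549726, Psmc5, Uqcc1 and Pkd1, and the second probe set of Uqcc1 went the other way (0.37 ± 0.25). Psmc5, an ATPase of the proteasome, was lower without overlap after 3VO (means 11800 and 8430) and higher without overlap after sham (8860 and 11100).

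Set beside sham by list, the matrix list had 56 of 65 genes with a larger time change after 3VO than after sham (median difference 0.30), the leptomeningeal list 17 of 17 (0.34), the contractile smooth muscle list 27 of 31 (0.22), and the mitotic list 24 of 35 (0.26). The acute phase list had 11 of 28 (-0.22) and the neuron list 2 of 27 (-0.59). Over all genes the median of this difference was 0.01, and 50.9% of genes were above 0.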

How the data were processed

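The deposited values are linear array signals, an intensity that the authors made with GCOS (version not given in the sources used here), per the submitters' processing notes, on Affymetrix Rat230A arrays. The design text gives a global target of 500. A mean that drops 2% of the values on either side came to 5000 for all 15 arrays, 10 times that. Ratios of the raw signals are not affected. The added 16 and the filter at 100 are fixed, so they are smaller relative to the signals than at a target of 500. Values were taken as log2(signal + 16), and 15737 of 15866 non-control probe sets reached 100 on 3 or more arrays and entered the fit.

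limma 3.58.1 in R 4.3.3 fitted 5 group means to all 15 arrays (10 residual and 4.83 prior degrees of freedom, eBayes with trend, 2-sided), with Benjamini-Hochberg adjustment over all probe sets and a call under 0.05. With 3 arrays per group, an exact permutation test of a single gene cannot go below 0.1, so none is given, and the number of arrays limits the precision. A group without overlap has all 3 arrays on one side of the other 3. Interval bounds are 95%. Array replicate numbers follow accession order and pair nothing. Pairwise array correlations were checked, and no 2 arrays were copies.

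Symbols are those of GEO's platform annotation, brought up to date by Entrez and RefSeq ID: 12783 probe sets had 1 gene, 312 several and 2771 none. The 38 lists used the brightest probe set of each gene and are described by counts and medians, without a test. Members and lists were chosen with earlier results of these data known. Named genes had 1 symbol: in each direction up to 12 with the smallest p, no overlap and a mean of 1000 or more in the higher group, up to 6 for the difference from sham, up to 4 per list with the smallest p, and a set list of genes. The fit was tested on simulated data. Alternatives were other pseudocounts, filters, normalizations, weights, covariates and group sets, and each array left out.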

Additional observations from a re-analysis of the deposited data

How the results depend on the processing

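Over 30 alternative settings, 15 of which leave out an array, 22 gave no probe set past the test for the time change after 3VO and 8 gave 1 to 4. Array weights gave 3 higher (Ccdc66, Medag, Ythdf2) and 1 lower (C3), the brightest probe set of each gene gave 1 lower (C3), the operated groups without intact gave 1 higher (Ccdc66), and the neuron list's mean entered as covariate gave 1 lower (C3). With an array left out, 0 to 1 passed as higher (Fam98c without 24 h array 1, Fzd6 without 24 h array 3, Ccdc66 without intact array 3) and 0 to 1 as lower (C3 without 24 h array 3, sham 24 h array 2 or intact array 3). Probe sets without overlap then numbered 1464 to 2659 higher and 737 to 1468 lower, since 2 against 3 arrays overlap less often, and 938 were higher with 1 probe set per gene. The difference from sham gave 0 under all settings. No paired analysis was possible because replicate numbers follow accession order only.

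Of 192 named genes, 176 kept their direction in every setting run and 16 did not. The turned values were -0.14 (quantile normalization), -0.21 (choroid plexus covariate) and -0.47 (array number as covariate) for Il6; -0.08, -0.05 (array weights), -0.14 (neuron covariate), -0.07 and -0.01 for Ppbp; -0.02 (median centring) and -0.05 (neuron covariate) for Col3a1; 0.15 for Top2a and 0.15 for Selp (array weights); -0.15 for Hmox1 (neuron covariate); -0.73 (choroid plexus covariate) and -1.02 (array number) for Ttr; and -0.02 for Acta2 and 0.10 for Mal (array number). With arrays left out, log2 differences ran from -0.37 to 0.30 for Il6, -0.22 to 0.02 for Socs3, -0.44 to 0.52 for Top2a, -0.51 to 0.01 for Vegfa, -0.54 to 0.80 for Hmox1, -1.12 to 0.95 for Ttr, -0.21 to 0.44 for Ppbp, -0.53 to 0.53 for Selp, -0.01 to 1.03 for Dbh, -0.30 to 0.88 for Mobp, -0.01 to 0.91 for Gpr37, -0.10 to 0.46 for Acta2, -0.04 to 0.21 for Myh11, -0.05 to 0.09 for Col3a1 and -0.01 to 0.65 for Pf4. The cause was not tested. Of 38 list medians, 18 kept their direction in every setting run, among them those of the acute phase, mitosis, matrix, pericyte, macrophage and respiratory chain lists. Low signals limit the comparison of Nos2, Prl, Cd8a and Glra2.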
